A study of Mus musculus with 62 samples.

Results

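Growth hormone axis genes were described as a set of 9 members, out of 48795 genes in the deposited count table: Ghr, Igf1, Igfals, Socs2, Cish, Stat5a, Stat5b, Mup3 and Mup20. The members were chosen by name, and each was found by matching its Ensembl identifier to its symbol. The 62 RNA-seq libraries came from 16 groups of C57BL6 mice, either wild type (WT) or with a whole-body knockout (KO) of Fam13a made by removing exon 5. Liver, gonadal visceral adipose tissue (VAT) and inguinal subcutaneous adipose tissue (SAT) were taken from males on chow or on a high-fat diet (HFD), and both fat depots also from females on HFD. The HFD held 45% of its energy as fat and was fed for 14 weeks from 8 weeks of age, so HFD mice were 22 weeks old. The age of the chow mice and the feeding state at tissue collection for RNA are not given in the sources used here. The paper's chow males used for fat histology were 14 weeks old, so age may differ between the diets. Every group had 4 libraries except the female WT groups, which had 3, giving 16 liver, 23 SAT and 23 VAT libraries. The comparisons asked whether diet, genotype, sex and tissue changed the level of each gene.

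Growth hormone is released by the pituitary and acts on liver and fat through the growth hormone receptor, encoded by Ghr. The bound receptor activates the kinase JAK2, which phosphorylates the transcription factors STAT5A and STAT5B. In liver, STAT5B drives Igf1, the circulating growth factor that carries out much of the hormone's effect on growth, and Igfals, whose product (the acid-labile subunit) holds IGF-1 in a long-lived complex with its binding proteins in blood. STAT5 also induces Cish and Socs2, suppressors of cytokine signalling that bind the receptor complex and switch the signal off. Mup3 and Mup20 encode major urinary proteins, small lipocalins that the male mouse liver secretes in bulk under pulsed growth hormone and that carry pheromones into urine.

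The members lie on several chromosomes of the GRCm38 build. Ghr (ENSMUSG00000055737.12) spans chr15:3317760-3583492 on the minus strand. Igf1 (ENSMUSG00000020053.18) spans chr10:87858265-87937042 on the plus strand, and Socs2 (ENSMUSG00000020027.18) spans chr10:95385362-95417180 on the minus strand. Igfals (ENSMUSG00000046070.8) spans chr17:24865997-24882010 and Cish (ENSMUSG00000032578.7) spans chr9:107296026-107302784, both on the plus strand. Stat5b (ENSMUSG00000020919.11) at chr11:100780731-100850724 and Stat5a (ENSMUSG00000004043.14) at chr11:100859351-100885169 are neighbours transcribed away from each other. Mup20 (ENSMUSG00000078672.2) at chr4:62050234-62054158 and Mup3 (ENSMUSG00000066154.11) at chr4:62083476-62087342 sit in the same cluster on the minus strand. Igf1 overlaps the antisense gene Igf1os, Cish overlaps Gm17040 and Gm17041, and Stat5a overlaps Stat3, each on the opposite strand. The library kit marks strand, but the strand setting of the counting is not given in the sources used here, so reads of these pairs may not be fully separated. Mup genes are near copies of one another, and gene counting in STAR may have dropped reads that fit several of them. Each Mup value may therefore be too low, and which copy it reports is uncertain.

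The motif TTCNNNGAA, the spaced palindrome that STAT5 is known to bind, was searched on both strands in RefSeq promoter windows of GRCm38.p6, which run from 250 bases before to 50 bases after an annotated start. Windows were found for 7 of the 9 members, 12 windows in all, with none in the table for Socs2 or Mup20. Of these, 3 windows held the motif, against 8.3% of all 32851 windows. Cish held 2 copies in a single window, as did 0.457% of all windows. The stretches that hold the motifs of the Cish and Igfals windows are shown because both genes rose in liver on HFD. Capitals mark the motif, and all are on the plus strand.
Cish, chr9:107296654-107296683: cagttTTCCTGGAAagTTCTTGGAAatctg
Igfals, chr17:24877598-24877627: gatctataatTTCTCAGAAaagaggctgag
Igfals, chr17:24878163-24878192: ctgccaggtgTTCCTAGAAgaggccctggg
The Cish copies begin at the start base itself and 11 bases after it. The Igfals copies begin 236 and 58 bases before 2 of its annotated starts. The windows of Ghr, Igf1, Stat5a, Stat5b and Mup3 held no copy of these letters. A match is a description of letters, not of binding.

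Library quality bears on several results below. Total counts ran from 4959783 to 28723319 per library, and a single ribosomal RNA gene took up to 75.4% of the counts in liver, 23.7% in SAT and 40.1% in VAT. It took over 10% in 4 liver, 6 SAT and 6 VAT libraries. The extreme library was HFD KO liver replicate 3, with 4959783 counts in all and only 4 reads of Socs2 and 9 of Cish. No sequencing lane held both diets, and none held fat of both sexes, so neither diet nor sex can be told apart from lane. Diet may also go together with age, since the age of the chow mice sequenced is not given. In liver, the targeted gene Fam13a was at 28.7 to 46.6 CPM (counts scaled to a common library total) in WT and 19.6 to 39.1 in KO on chow, and at 19.3 to 24.8 in WT and 10.8 to 16.9 in KO on HFD. Its genotype difference in liver was a log2 fold change of −0.68 ± 0.14 (SE; edgeR quasi-likelihood adjusted p = 0.235), which did not pass the 10% false discovery rate used throughout. In fat, Fam13a was called lower in KO over both male depots (log2 −1.12 ± 0.29, edgeR adjusted p = 0.0416). It was also called lower in SAT of both sexes (−0.74 ± 0.17, edgeR adjusted p = 0.0323), but not in VAT of both sexes (−1.01 ± 0.38, edgeR adjusted p = 0.474). Reads from the exons that remain are counted too, so the gene's total does not fully check the knockout. The labels number the libraries within a group without naming a mouse for each, so the p-values measure the spread between libraries. Liver and both depots may come from the same mice, and the tests over more than 1 tissue treat their libraries as independent.

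In male liver, 5 of the 9 members changed with diet: Ghr, Igfals, Stat5a and Cish were higher on HFD and Igf1 was lower. Of all 14476 genes tested in this comparison, 40.8% were called (20.6% higher and 20.2% lower), so a diet call was common in this tissue. The fold changes were modest apart from Cish: 1.63-fold for Ghr, 1.58-fold for Stat5a, 1.47-fold for Igfals and 4.36-fold for Cish, against a level 1.21-fold lower for Igf1. The receptor gene and the growth factor gene moved in opposite directions in the same livers.

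**Figure D1:**
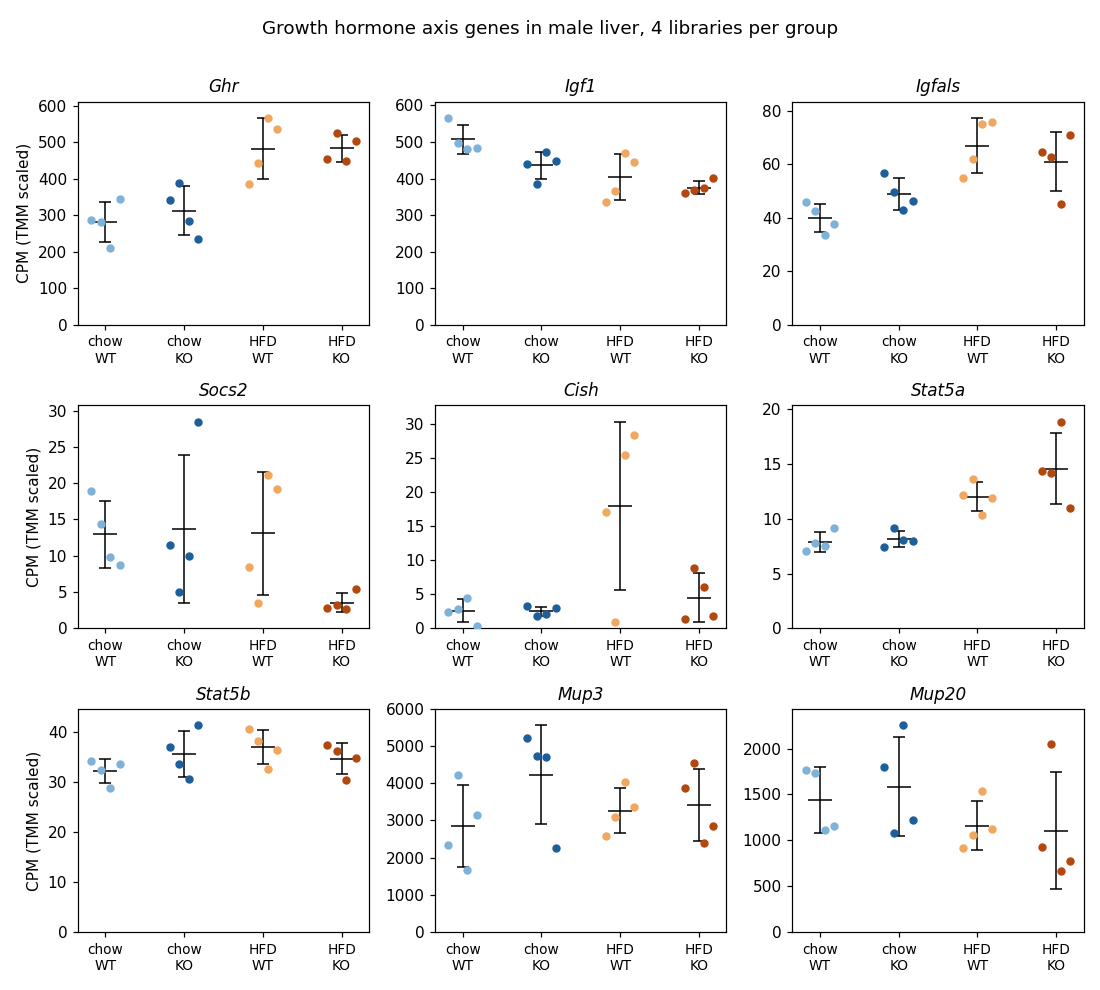
Level of the 9 genes in each of the 16 male liver libraries, in CPM on linear axes that differ between panels, for chow WT, chow KO, HFD WT and HFD KO. Points are libraries and bars are the group mean ± SD (n = 4). Stat5a is higher in all HFD libraries than in all chow libraries, whereas the 4 HFD WT values of Cish range from 0.973 to 28.5 CPM.

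Ghr, the receptor, stood at 287, 280, 211 and 344 CPM in the chow WT livers and at 343, 390, 285 and 234 CPM in the chow KO livers. On HFD it stood at 384, 444, 565 and 537 CPM in WT and at 454, 525, 448 and 504 CPM in KO. Within each genotype all HFD livers were above all chow livers, and the only overlap came from setting the chow KO maximum against the HFD WT minimum. The diet effect was a log2 fold change of 0.71 ± 0.12 (SE; edgeR adjusted p = 0.000107, 8 livers per diet).

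Igf1, the secreted growth factor, was at 565, 498, 482 and 483 CPM in chow WT and at 440, 386, 472 and 448 CPM in chow KO. On HFD it was at 337, 367, 469 and 445 CPM in WT and at 360, 368, 373 and 401 CPM in KO. HFD livers were mostly lower, but HFD WT replicates 3 and 4 and HFD KO replicate 4 lay within the chow KO range. Over both genotypes the log2 fold change was −0.27 ± 0.08 (edgeR adjusted p = 0.0106). The ratio of Igf1 to Ghr in TPM, which scales counts by transcript length as well as by library total, was 1.70 ± 0.34 (SD, n = 4) in chow WT and 0.768 ± 0.022 in HFD WT, and 1.34 ± 0.37 in chow KO and 0.713 ± 0.051 in HFD KO. These ratios describe the same libraries and were not tested separately.

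Igfals, which encodes the carrier subunit for IGF-1, was at 45.7, 42.5, 33.6 and 37.5 CPM in chow WT and 56.9, 49.5, 42.9 and 46.1 CPM in chow KO. It was at 54.8, 61.9, 75.0 and 75.9 CPM in HFD WT and 64.6, 62.7, 45.2 and 70.9 CPM in HFD KO. The WT groups did not overlap, while in KO the deeply ribosomal HFD replicate 3 (45.2 CPM) fell inside the chow range. The log2 fold change over both genotypes was 0.56 ± 0.10 (edgeR adjusted p = 0.000376). Igf1 and its carrier thus went opposite ways with diet in liver.

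Stat5a gave the clearest separation. It stood at 7.10, 7.83, 7.54 and 9.20 CPM in chow WT, at 7.45, 9.13, 8.04 and 7.97 CPM in chow KO, at 12.2, 13.7, 10.4 and 11.9 CPM in HFD WT and at 14.4, 14.2, 18.9 and 10.97 CPM in HFD KO. No HFD liver overlapped a chow liver, and the log2 fold change was 0.66 ± 0.09 (edgeR adjusted p = 2.43e-05). Stat5b, the STAT5 form that predominates in liver, was at 28.7 to 41.3 CPM on chow and 30.3 to 40.7 CPM on HFD, with a log2 difference of 0.10 ± 0.07 (edgeR adjusted p = 0.327). Without the libraries over 10% ribosomal RNA that difference was 0.17 (edgeR adjusted p = 0.0531), which passed. Per transcript length, Stat5b exceeded Stat5a in every group, by 5.28 ± 0.67 (SD, n = 4) in chow WT and 3.97 ± 0.29 in HFD WT, and by 5.68 ± 0.996 in chow KO and 3.19 ± 0.83 in HFD KO.

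The feedback inhibitors were the most variable members in liver. Cish was at 2.47, 2.88, 4.51 and 0.410 CPM in chow WT and at 3.23, 1.81, 2.09 and 2.94 CPM in chow KO. On HFD it was at 17.1, 0.973, 25.5 and 28.5 CPM in WT and at 1.41, 8.87, 6.07 and 1.80 CPM in KO. Of the HFD WT livers 3 stood above all others, and HFD WT replicate 2 was below most chow livers. The log2 fold change was 2.12 ± 0.61 (edgeR adjusted p = 0.0114), and limma-voom gave 1.85 with an adjusted p of 0.117, which did not pass.

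Socs2 was at 18.9, 14.3, 9.80 and 8.75 CPM in chow WT and at 11.4, 5.02, 9.91 and 28.5 CPM in chow KO. On HFD it was at 8.42, 3.55, 21.1 and 19.3 CPM in WT and at 2.78, 3.26, 2.70 and 5.44 CPM in KO. The HFD KO livers were all low, with only replicate 4 (5.44 CPM) above the lowest chow KO liver, whereas the WT diets overlapped throughout. Over both genotypes the log2 difference was −0.75 ± 0.41 (edgeR adjusted p = 0.173). It passed without HFD WT replicate 3 (adjusted p = 0.0639) or replicate 4 (0.0902), and as an average of the group means (log2 −0.90, adjusted p = 0.0632).

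The major urinary protein genes were the most abundant members in liver, and neither passed the test for diet. Mup3 was at 1662 to 5223 CPM on chow and at 2404 to 4537 CPM on HFD, with a log2 difference of −0.06 ± 0.20 (edgeR adjusted p = 0.871; approximate 95% interval −0.45 to 0.34). Mup20, which encodes the male pheromone darcin, was at 1077 to 2254 CPM on chow and 661 to 2051 CPM on HFD, with a log2 difference of −0.42 ± 0.21 (edgeR adjusted p = 0.145). The Mup20 difference passed with the ribosomal RNA share as a covariate (log2 −0.64, adjusted p = 0.0349) and with limma-voom (log2 −0.48, adjusted p = 0.0814), and also without chow KO replicate 2 (adjusted p = 0.0937), HFD KO replicate 2 (0.0166) or HFD WT replicate 3 (0.0923). Of the 22 Mup family genes, 20 could be tested and 5 were called with diet in liver, where 40.8% of all genes were called. Mup2 rose (log2 0.64 ± 0.21, edgeR adjusted p = 0.0282), and Mup8, Mup11, Mup13 and Mup22 fell, by 1.04, 1.46, 0.97 and 0.39 on the log2 scale. In WT liver alone 1 rose and 1 fell (30% of all genes were called), and in KO liver 0 were called (21.6% of all genes). The family's median log2 change was −0.63, beside −0.0038 over all genes tested.

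The promoter windows of the Mup genes were also compared. Their likeness does not measure how far reads of the transcripts are shared. Mup windows in the table numbered 14, and the Mup3 window shared between 49.3% and 90.5% of its bases with the other 13, the highest with Mup21. Among the remaining 78 pairs the identity ran from 36.6% to 98.0%, with a median of 74.0%.

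The 5 diet calls in liver remained with each of the 16 libraries left out in turn, and also without the libraries over 10% ribosomal RNA. In bulk tissue, fewer cells of a type and less RNA per cell cannot be told apart. Hepatocyte marker genes summed to 37203 to 61730 CPM on chow and 43744 to 55943 CPM on HFD, and Kupffer cell markers to 86.9 to 123 CPM on chow and 49.2 to 116 CPM on HFD. Their part in the diet results was not tested.

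Within each genotype, the diet effect in WT liver was called for 5 members (30% of all genes were called) and in KO liver for 4 (21.6% of all genes). Ghr rose in both, by a log2 fold change of 0.78 ± 0.16 in WT (edgeR adjusted p = 0.0022) and 0.63 ± 0.16 in KO (adjusted p = 0.0142). The KO call for Ghr was lost with the ribosomal RNA share as a covariate (log2 0.47, adjusted p = 0.102). Stat5a rose in both, by 0.60 ± 0.13 in WT (adjusted p = 0.00238) and 0.73 ± 0.14 in KO (adjusted p = 0.00169). Igfals rose by 0.74 ± 0.13 in WT (adjusted p = 0.000642) and by 0.36 ± 0.14 in KO (adjusted p = 0.0844). The KO call for Igfals did not remain with that covariate (log2 0.08, adjusted p = 0.775), nor without any of 6 single libraries (chow KO replicates 2, 3 and 4 and HFD KO replicates 1, 2 and 4, adjusted p = 0.139 to 0.229).

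Igf1 was called in WT liver (log2 −0.33 ± 0.11, edgeR adjusted p = 0.04) and not in KO liver (−0.22 ± 0.11, adjusted p = 0.206). The WT call was lost without chow WT replicate 1 (adjusted p = 0.128), HFD WT replicate 1 (0.134) or HFD WT replicate 2 (0.116). Cish was called in WT liver (log2 2.92 ± 0.73, adjusted p = 0.00749) and not in KO liver (0.85 ± 0.87, adjusted p = 0.571), and the WT call was lost with limma-voom (log2 2.52, adjusted p = 0.14). Socs2 was called in KO liver (log2 −1.80 ± 0.56, adjusted p = 0.0349), where the WT difference was −0.00 ± 0.46. The KO call for Socs2 was lost without chow KO replicate 4 (log2 −1.13, adjusted p = 0.165), the liver with the highest value, without HFD KO replicate 1 (0.109) or replicate 2 (0.101), with limma-voom (log2 −1.38, adjusted p = 0.185) and without the libraries over 10% ribosomal RNA (log2 −0.97, adjusted p = 0.362).

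None of these differences between genotypes passed when tested directly. In the diet by genotype interaction, 0 members and 0 of 14476 genes were called by edgeR, with 1 member and 928 genes (6.41%) at an unadjusted p under 0.05. DESeq2 called 24 genes in all and no member. Socs2 had the smallest p among members, with an interaction of −1.79 ± 0.72 on the log2 scale (edgeR adjusted p = 0.732). The interaction was −2.07 ± 1.15 for Cish (adjusted p = 0.813) and −0.38 ± 0.19 for Igfals (adjusted p = 0.783).

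For genotype itself, no member passed the threshold in liver as tested here. Over both diets edgeR called 0 members and 0 of all genes, with 2 members (Cish and Igf1) and 1416 genes (9.78%) at an unadjusted p under 0.05, while DESeq2 called 91 genes, limma-voom 2, and none of them a member. The KO over WT log2 difference was −1.33 ± 0.62 for Cish (edgeR adjusted p = 0.501), −0.16 ± 0.08 for Igf1 (adjusted p = 0.51) and 0.08 ± 0.11 for Ghr (adjusted p = 0.869; approximate 95% interval −0.15 to 0.30). On chow alone edgeR called 0 members, 0 members were at an unadjusted p under 0.05 (8.25% of all genes were), and 1 gene in all was called (0.00691%). With the ribosomal RNA share as a covariate Igfals was called on chow, higher in KO by 0.52 on the log2 scale (adjusted p = 0.0988). Igf1 in the chow livers did not overlap between genotypes (386 to 472 CPM in KO and 482 to 565 CPM in WT), with a log2 difference of −0.22 ± 0.11 (edgeR adjusted p = 0.6248).

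On HFD the feedback inhibitors differed most between genotypes, although edgeR called 0 members (2 at an unadjusted p under 0.05, as were 8.09% of all genes) and 9 genes in all (0.0622%). Socs2 was lower in HFD KO than in HFD WT liver by a log2 difference of −1.79 ± 0.53 (edgeR adjusted p = 0.322). Cish differed by −2.12 ± 0.72 (edgeR adjusted p = 0.44). HFD WT replicate 2 was low for both genes. It lay within the KO range for Socs2 and, at 0.973 CPM, below the lowest KO liver (1.41 CPM) for Cish. Without it both passed, Socs2 at −2.11 (adjusted p = 0.0691) and Cish at −2.51 (adjusted p = 0.0551). With no filter on low counts both also passed, at adjusted p values of 0.019 and 0.05.

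Around the 9 members, genes of the wider axis were read from lists written with earlier results of these data known. The counts of each list stand beside the 40.8% of all genes called for diet in liver. Of 12 IGF ligands and binding proteins, 7 could be tested in liver, of which 2 rose and 3 fell with diet (median log2 −0.08). Igfbp1, an insulin-suppressed binding protein of the liver, fell by 3.21 on the log2 scale (SE 0.28, edgeR adjusted p = 1.32e-07), from 93.8 ± 24.1 CPM (SD, n = 4) in chow WT to 10.5 ± 4.35 CPM in HFD WT. Igfbp2 fell by 0.92 and Igfbp3, the partner of the acid-labile subunit, fell by 0.63, while Igfbp4 rose by 0.54 and Igfbp5 by 1.14. Of 7 other receptors, 5 could be tested and 1 was called, the somatostatin receptor Sstr2 (log2 −1.89 ± 0.36, adjusted p = 0.000438). Igf1r, Igf2r, Insr and Prlr, among the rest of that list, did not pass.

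Of 27 genes of signalling below the receptor, 26 could be tested in liver, with 6 higher and 4 lower on HFD (median log2 0.01), a share near that of all genes. Irs1 and Irs2, adaptors of insulin and IGF-1 signalling, fell by 0.70 and 1.14 on the log2 scale (edgeR adjusted p = 1.15e-05 and 0.000136). Pik3r1, a regulatory subunit of PI 3-kinase, rose by 0.87 (adjusted p = 4.15e-06). The receptor adaptor Grb14 fell by 0.47 and the JAK2-binding adaptor Sh2b3 rose by 0.33. Jak2 itself was not among the genes called.

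Genes that differ between the sexes in mouse liver under the pattern of growth hormone release were read as well. Of 18 male-biased genes 4 rose and 10 fell on HFD (median log2 −0.74), and of 23 female-biased genes 17 could be tested, with 5 higher and 7 lower (median log2 −0.05). Serpina1e, a serpin of the alpha-1-antitrypsin family, fell by 3.92 on the log2 scale (edgeR adjusted p = 9.04e-08), from 3072 ± 1037 CPM (SD, n = 4) in chow WT to 210.3 ± 61.4 CPM in HFD WT. Elovl3, a fatty acid elongase, fell by 1.54 and the complement gene C6 by 1.01, whereas the cytochrome P450 gene Cyp2u1 rose by 1.31 and Nudt7, a peroxisomal CoA diphosphatase, by 1.09. Cyp2b9, a female-biased P450, was at 0 to 2.61 CPM in chow WT and 0 to 4.37 CPM in chow KO livers, and at 22.8 to 177 CPM in HFD WT and 182 to 280 CPM in HFD KO livers (edgeR adjusted p = 1.69e-07). Cyp4a14 and Cyp4a10, fatty acid hydroxylases, fell by 1.65 and 0.94.

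Of 12 liver transcription factors linked to the hormone's response, 8 rose and 2 fell with diet (median log2 0.53). Onecut1, a factor known to respond to growth hormone, rose by 2.61 on the log2 scale (SE 0.51, edgeR adjusted p = 0.0006), with values of 0.931 to 3.23 CPM in chow WT and 3.06 to 37.0 CPM in HFD WT. Cebpa rose by 0.52, Foxa2 by 0.58 and Nr1i3 by 0.86, and Hnf4a fell by 0.28.

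**Figure D2:**
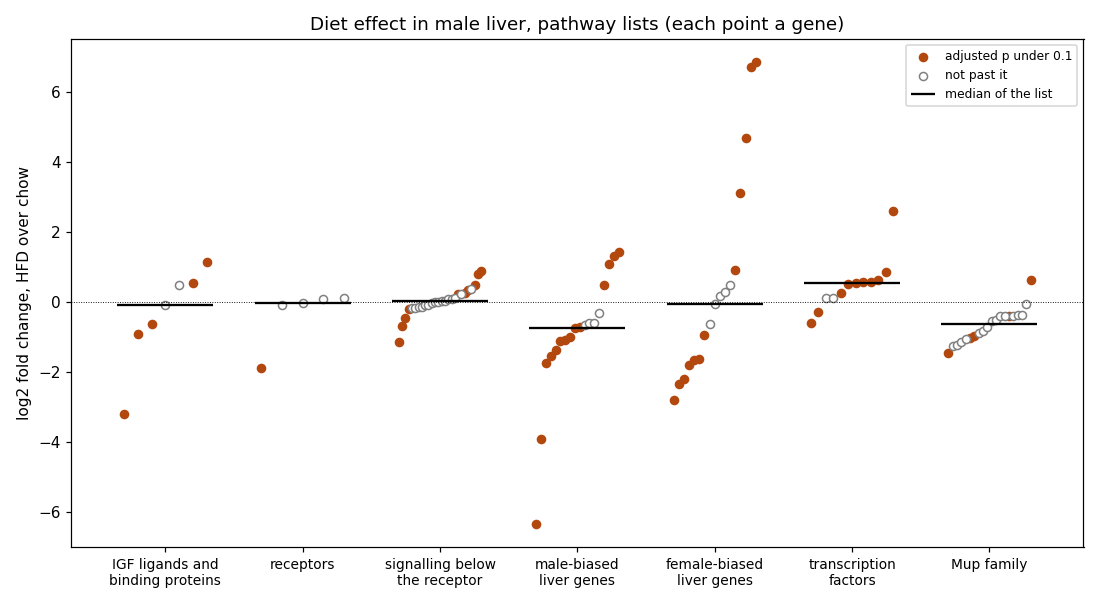
Log2 fold change with HFD (edgeR, 16 male livers) of each tested gene of the pathway lists, with 1 point per gene, filled where the adjusted p was under 0.1, and a line at each list's median. The male-biased list has its median at −0.74 and the transcription factor list at 0.53, beside a median of −0.0038 over all genes tested.

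Between tissues, levels were compared per transcript length with the ribosomal RNA gene left out. In chow WT males Igf1 was at 134 ± 7.93 TPM (SD, n = 4) in liver, 88.2 ± 19.1 in VAT and 52.8 ± 17.1 in SAT. Ghr was instead lowest in liver, at 455 ± 101 TPM in VAT, 242 ± 41.9 in SAT and 81.1 ± 14.96 in liver. Igfals was at 32.9 ± 3.09 TPM in liver, 8.48 ± 6.20 in VAT and 3.88 ± 1.34 in SAT, where the 2 depots did not differ beyond their spread.

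Stat5a was at 14.9 ± 4.73 TPM in VAT, 11.8 ± 2.35 in SAT and 2.92 ± 0.38 in liver, and Stat5b at 33.0 ± 4.10 in SAT, 31.6 ± 2.14 in VAT and 15.2 ± 0.77 in liver, so that for both STAT5 genes the depots overlapped and liver lay lowest. Socs2 was at 5.24 ± 0.72 TPM in SAT, 4.22 ± 0.65 in VAT and 3.53 ± 1.15 in liver, with neighbours within their spread. Cish was at 3.01 ± 1.34 TPM in VAT, 2.66 ± 1.18 in SAT and 1.06 ± 0.73 in liver. Here the depots did not differ beyond their spread. Mup3 was at 6927 ± 2506 TPM in liver, 8.19 ± 15.5 in VAT and 1.24 ± 0.43 in SAT. Mup20 was at 4038 ± 846 TPM in liver and 2.89 ± 5.44 in VAT, and was listed at 0 in every chow WT SAT library. Thus 4 of the 9 members were highest in liver.

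The diet effect differed between tissues for most members, tested over the 48 male libraries as the difference of the HFD minus chow effects. Between liver and SAT 6 members were called (27.7% of all genes), between liver and VAT 6 (33.6%), and between SAT and VAT 2 (36.9%). Ghr rose in liver and fell in VAT, and the VAT effect lay below the liver effect by 1.90 ± 0.26 on the log2 scale (edgeR adjusted p = 8.39e-07). The SAT effect of Ghr lay between, 0.95 ± 0.26 below liver (adjusted p = 0.0076) and 0.95 ± 0.26 above VAT (adjusted p = 0.00494). Stat5a likewise had a lower diet effect in fat than in liver, by 0.77 ± 0.18 in SAT (adjusted p = 0.00173) and 1.03 ± 0.18 in VAT (adjusted p = 2.85e-05). Igfals rose in every tissue and more in fat, by a further 2.35 ± 0.46 in SAT (adjusted p = 0.000323) and 1.34 ± 0.45 in VAT (adjusted p = 0.023). Without the libraries over 10% ribosomal RNA, the Ghr call between SAT and VAT was lost (log2 −0.72, edgeR adjusted p = 0.113). The Igfals call between liver and VAT was lost there too (1.14, adjusted p = 0.235).

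**Figure D3:**
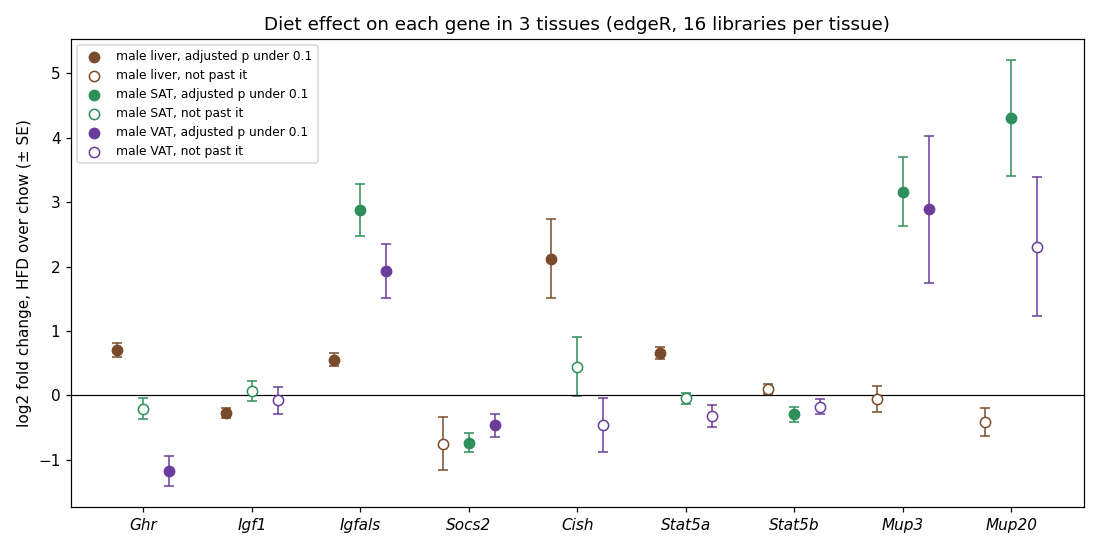
Log2 fold change of HFD over chow (± SE) of each of the 9 genes in male liver (16 libraries), SAT (16) and VAT (16), from separate edgeR fits. Filled points passed the 10% false discovery rate. Ghr lies at 0.71 in liver, −0.21 in SAT and −1.18 in VAT, and Igfals lies above 0 in all tissues.

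In male SAT, 5 members were called with diet, 3 higher and 2 lower, where 58% of all genes were called (28.5% higher and 29.6% lower), so that the members' share was close to the background. Igfals stood at 6.10, 4.87, 2.42 and 4.32 CPM in chow WT, 12.8, 34.98, 7.10 and 6.56 CPM in chow KO, 48.7, 60.9, 70.3 and 71.0 CPM in HFD WT and 66.6, 44.5, 72.8 and 69.0 CPM in HFD KO. No HFD depot overlapped a chow depot, although chow KO replicate 2 (34.98 CPM) stood well above the other chow values. The fold change was 7.36 (log2 2.88 ± 0.40, edgeR adjusted p = 0.000107). DESeq2 gave no adjusted p for this gene because of an extreme count.

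Socs2 was at 16.6, 16.9, 19.1 and 18.5 CPM in chow WT SAT and at 12.01, 8.33, 10.05 and 19.9 CPM in chow KO SAT. On HFD it was at 9.87, 9.47, 8.89 and 11.3 CPM in WT and 8.13, 8.61, 7.99 and 8.44 CPM in KO. The WT diets did not overlap, while chow KO replicates 2 and 3 lay among the HFD values. The log2 fold change was −0.73 ± 0.14 (edgeR adjusted p = 0.00101). Lymph node B cell markers summed to 200 to 643 CPM in the chow WT depots, to 2.23, 5.73, 25.7 and 381 CPM in chow KO replicates 1 to 4, and to 2.21 to 4.22 CPM in 7 of the 8 HFD male depots, with 243 CPM in HFD WT replicate 2. Chow KO replicate 4, the only KO depot on chow with a high sum, also had the highest Socs2 of its group. HFD WT replicate 2 (243 CPM) had Socs2 at 9.47 CPM, within the 8.89 to 11.3 CPM of its group. The part of lymph node in the SAT results was not tested.

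Stat5b in SAT was at 60.6 to 115 CPM on chow and 50.3 to 66.0 CPM on HFD, a log2 fold change of −0.29 ± 0.12 (edgeR adjusted p = 0.0561) that was lost without HFD KO replicate 4 (adjusted p = 0.109) and without the libraries over 10% ribosomal RNA (log2 −0.18, adjusted p = 0.119). The highest value, 115 CPM, was in chow KO replicate 1, which carried skeletal muscle markers at 19587 CPM beside 58.1 to 781 CPM in the other chow depots. Ghr (log2 −0.21 ± 0.16, edgeR adjusted p = 0.301), Igf1 (0.07 ± 0.16, adjusted p = 0.733), Cish (0.45 ± 0.46, adjusted p = 0.435) and Stat5a (−0.04 ± 0.08, adjusted p = 0.682) did not pass. Cish again spread widely in HFD WT, at 20.5, 4.27, 2.65 and 24.4 CPM, beside 2.05 to 3.98 CPM in HFD KO.

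In male VAT, 4 members were called with diet, 2 higher and 2 lower, where 44.2% of all genes were called (21% higher and 23.2% lower), again close to the members' share. Ghr was at 1515, 847, 1748 and 1360 CPM in chow WT and 593, 1367, 2212 and 1746 CPM in chow KO, and at 696, 715, 481 and 395 CPM in HFD WT and 752, 678, 611 and 741 CPM in HFD KO. The HFD depots were below all chow depots except chow KO replicate 1 (593 CPM), and the level was 2.26-fold lower on HFD (log2 −1.18 ± 0.23, edgeR adjusted p = 0.0011). That chow library and chow WT replicate 2 (847 CPM) carried epididymis markers at 12571 and 3702 CPM, beside 1.63 to 76.9 CPM in the other chow depots and at most 5.87 CPM on HFD. Macrophage markers summed to 318 to 724 CPM on chow and 928 to 2363 CPM on HFD, and adipocyte markers to 6091 to 16142 CPM on chow and 6384 to 12906 CPM on HFD. The part of these cells in the Ghr result was not tested.

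Igfals in VAT was at 18.3, 4.13, 11.5 and 2.80 CPM in chow WT, 4.25, 21.1, 4.44 and 4.41 CPM in chow KO, 37.3, 51.8, 23.5 and 31.9 CPM in HFD WT and 32.7, 29.3, 25.7 and 40.0 CPM in HFD KO. As in SAT the diets did not overlap, and the fold change was 3.82 (log2 1.93 ± 0.41, edgeR adjusted p = 0.00207). Socs2 in VAT was lower by a log2 fold change of −0.47 ± 0.18 (edgeR adjusted p = 0.0599). It was at 5.96 to 14.01 CPM on chow and 5.80 to 10.4 CPM on HFD, and the call was lost without any of 5 of the 16 libraries (chow WT replicates 2, 3 and 4 and HFD WT replicates 2 and 3, adjusted p = 0.106 to 0.136). Stat5a did not pass (log2 −0.32 ± 0.17, adjusted p = 0.155; 0.0961 without chow WT replicate 4), nor did Igf1 (−0.07 ± 0.21, adjusted p = 0.827), Cish (−0.46 ± 0.42, adjusted p = 0.417; 0.0891 without HFD WT replicate 1) or Stat5b (−0.18 ± 0.12, adjusted p = 0.264).

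**Figure D4:**
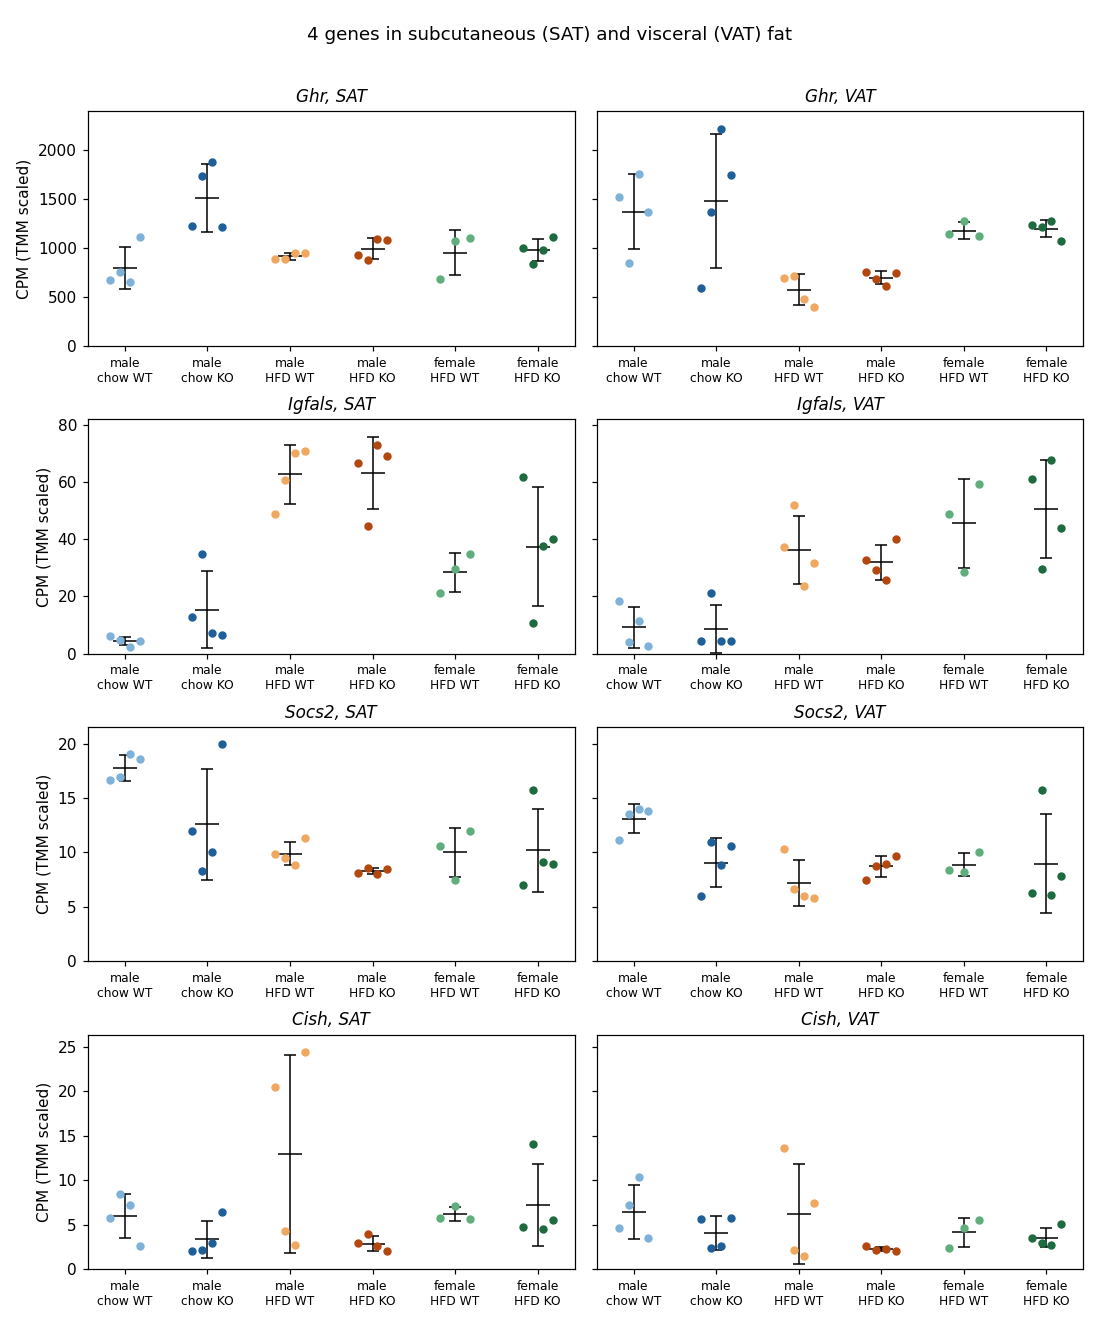
Level of Ghr, Igfals, Socs2 and Cish in each SAT and VAT library in CPM, for the 6 groups of each depot, with bars at the group mean ± SD (n = 4, or 3 for female WT). Igfals separates chow from HFD males in both depots, and Ghr in VAT is at 395 to 752 CPM in HFD males and 1066 to 1276 CPM in HFD females.

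Mup3 and Mup20, nearly silent in chow fat, were also higher in HFD fat, together with albumin. In male SAT Mup3 was at 0.248 to 1.61 CPM on chow and 1.16 to 13.4 CPM on HFD (log2 3.16 ± 0.53, edgeR adjusted p = 0.000365). Mup20 had 0 reads in all 4 chow WT depots and 0, 12, 1 and 4 reads in the chow KO depots, against 17, 49, 2 and 91 reads in HFD WT and 38, 144, 26 and 4 reads in HFD KO (edgeR adjusted p = 0.00162). No fold is given for Mup20, since most chow depots were at or under 3 reads. In male VAT Mup3 was called (log2 2.89 ± 1.15, adjusted p = 0.0607), a call lost without any of 6 single libraries (adjusted p = 0.101 to 0.151), and Mup20 was not (adjusted p = 0.105). Mup20 in VAT passed with DESeq2 (adjusted p = 0.0196), with limma-voom (0.0423) with the ribosomal RNA share as a covariate (0.0486), and without chow WT replicate 2 (0.00118), the chow depot with the most Alb, or HFD WT replicate 1, 3 or 4 (0.0728 to 0.0921).

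Albumin (Alb), the main secreted protein of hepatocytes, had 98 to 828 reads in chow and 290 to 4531 reads in HFD male SAT, and 34 to 3093 reads in chow and 198 to 6929 reads in HFD male VAT. The hepatocyte marker list as a whole summed to 8.70 to 40.9 CPM in chow and 16.5 to 268 CPM in HFD SAT, and to 3.28 to 159 CPM in chow and 12.4 to 310 CPM in HFD VAT. Mup3 reads as a percentage of Alb reads had a median of 7.27% in HFD SAT and 8.63% in HFD VAT, beside 10.3% in chow liver and 8.65% in HFD liver. In chow fat the median was 3.25% in SAT and 2.34% in VAT. Mup3 and Alb reads in male fat were thus both higher on HFD, and so was the median ratio of Mup3 to Alb. The chow medians rest on few Mup3 reads, 2 to 31 per library in SAT and 0 to 272 in VAT. In the chow library with the most Alb reads, the ratio was 8.79% in VAT (WT replicate 2, 3093 Alb reads). It was 3.26% in SAT (KO replicate 2, 828 Alb reads). Mup20 had 0 reads in every chow WT SAT library, where Alb had 98 to 203 reads. The part of hepatocyte RNA in the Mup reads of fat was not tested. Igfals in fat was 3.59% to 439% of Alb reads, against 0.0925% to 0.224% in liver, so its reads in fat did not keep the ratio to Alb that they had in liver.

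**Figure D5:**
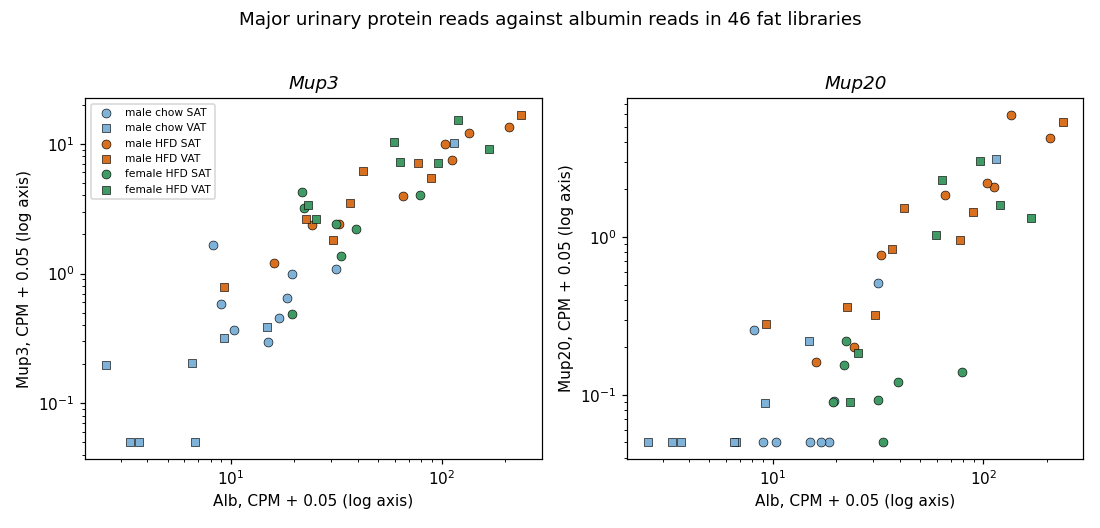
Mup3 and Mup20 against Alb in the 46 fat libraries, in CPM plus 0.05 on log axes, by depot, sex and diet. Libraries with more Alb have more Mup3, and HFD libraries lie toward the upper right.

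Genes of the wider axis in fat were read beside the 58% of all genes called for diet in SAT and 44.2% in VAT. Of 27 signalling genes in SAT 3 rose and 12 fell with diet, a share near that of all genes, among them Grb14 (log2 2.54 ± 0.38, edgeR adjusted p = 0.000162), Sh2b2 (−0.97) and Sh2b1 (−0.68), the last known to enhance JAK2 activity, and Socs1 (−0.85). In VAT 12 of 27 rose and 7 fell, with Sirpa, a receptor of myeloid cells, at log2 2.25 ± 0.22 (edgeR adjusted p = 1.11e-05), Ptpn6 at 1.83, Irs1 at −1.72 and Irs2 at −1.16. Insulin receptor (Insr) fell in both depots, by 0.71 in SAT and 1.39 in VAT, and prolactin receptor (Prlr), a close relative of Ghr, fell by 0.74 and 1.49. Of 11 IGF ligands and binding proteins tested, 3 passed in SAT, all of them higher, and 5 in VAT, all of them lower, including Igf2 (log2 −1.33) and Igfbp2 (−1.12).

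Genotype in fat called 1 member, Cish, which was lower in KO over both male depots (log2 −1.29 ± 0.33, edgeR adjusted p = 0.0406, 2.45-fold lower, 32 libraries). Of all genes in that comparison 3.97% were called, and 1.34% in the lower direction. In SAT, Cish was at 5.75, 8.42, 7.17 and 2.63 CPM in chow WT and 1.98, 2.10, 2.91 and 6.41 CPM in chow KO, and at 20.5, 4.27, 2.65 and 24.4 CPM in HFD WT and 2.87, 3.98, 2.57 and 2.05 CPM in HFD KO. In VAT it was at 4.59, 7.19, 10.3 and 3.46 CPM in chow WT and 5.66, 2.33, 2.54 and 5.76 CPM in chow KO, and at 13.6, 2.13, 1.49 and 7.39 CPM in HFD WT and 2.58, 2.10, 2.20 and 2.02 CPM in HFD KO. KO and WT overlapped in each of these 4 pairs of groups, and the highest value of each pair was in WT.

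The Cish call held with every single library left out, but was lost with limma-voom (log2 −0.98, adjusted p = 0.131), without the libraries of the second flow cell (−1.16, adjusted p = 0.115), with 6 surrogate variables (−0.87, adjusted p = 0.288), where Ghr was called instead (0.35 higher in KO, adjusted p = 0.0497), and without the libraries over 10% ribosomal RNA (−1.31, adjusted p = 0.703). Over all SAT libraries of both sexes edgeR called 0 members (4 at an unadjusted p under 0.05, as were 17.8% of all genes) where 4.33% of all genes were called. Ghr was higher in KO SAT by 0.37 ± 0.14 on the log2 scale (adjusted p = 0.157) and Cish lower by 1.005 ± 0.408 (adjusted p = 0.202), and DESeq2 called both (adjusted p = 0.0744 and 0.0736). Without female KO replicate 2, which had lymph node B cell markers at 305 CPM beside 1.99 to 5.22 CPM in its group, edgeR called 4 members and 2723 genes in all: Ghr (adjusted p = 0.0642), Igfals (0.0897), Socs2 (0.0756) and Cish (0.0519). In VAT of both sexes edgeR called 0 members (Cish and Mup3 at an unadjusted p under 0.05, as were 8.42% of all genes), 1 gene in all (0.00527%), and DESeq2 101 genes.

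The diet effect by genotype in fat called 0 members in SAT and 0 in VAT by edgeR. In SAT 2 members were at an unadjusted p under 0.05, as were 17.4% of all genes, and 3 genes in all were called (0.0173%). In VAT 2 members were at that level, as were 9.16% of all genes, and 1 gene in all was called (0.00577%). In SAT Ghr was at 666, 756, 653 and 1107 CPM in chow WT and 1218, 1728, 1872 and 1212 CPM in chow KO, which did not overlap, and at 883 to 946 CPM in HFD WT and 873 to 1089 CPM in HFD KO. The interaction was −0.80 ± 0.26 on the log2 scale (edgeR adjusted p = 0.187), and −1.83 ± 0.62 for Igfals (adjusted p = 0.195). DESeq2 called both (adjusted p = 0.0451 and 0.0708). Without chow KO replicate 4, edgeR called 5142 genes in all, among them Ghr (adjusted p = 0.0196), Igfals (0.0209) and Socs2 (0.0456). That library was the only chow KO depot with high lymph node B cell markers (381 CPM), beside 200 to 643 CPM in the chow WT depots. Without it, lymph node content differed with genotype on chow, and its part was not tested. Adipocyte markers in the same chow depots summed to 5175 to 9849 CPM in WT and 9312 to 17965 CPM in KO, and their part in the Ghr values was not tested.

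Sex was compared on HFD only, since female chow tissue was not analysed here. In VAT 4 members were higher in females (39.5% of all genes were called, 19.5% higher). Ghr was at 1136, 1273 and 1118 CPM in female WT and 1233, 1209, 1276 and 1066 CPM in female KO, all above the male HFD depots (395 to 752 CPM), and the fold difference was 1.84 (log2 0.88 ± 0.12, edgeR adjusted p = 8.68e-05). Stat5a was at 36.2 to 51.2 CPM in females and 17.3 to 32.1 CPM in males, which did not overlap (log2 0.72 ± 0.12, adjusted p = 0.000489). Stat5b was higher by 0.28 ± 0.09 (adjusted p = 0.0293) and Igfals by 0.49 ± 0.21 (adjusted p = 0.0884). The Igfals call was lost without any of 9 of the 15 libraries and in 5 alternatives. Macrophage markers in female HFD VAT summed to 442 to 630 CPM, below the males.

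In SAT 5 members were called for sex (26.6% of all genes, 13.5% higher and 13.1% lower in females), with Stat5a and Stat5b higher and Igfals, Mup3 and Mup20 lower in females. Igfals was at 21.2, 29.7 and 34.7 CPM in female WT and 61.7, 10.6, 37.7 and 39.9 CPM in female KO, mostly below the male range of 44.5 to 72.8 CPM (log2 −0.89 ± 0.26, edgeR adjusted p = 0.0279). Stat5a was higher by 0.44 ± 0.09 (adjusted p = 0.00296) and Stat5b by 0.21 ± 0.08 (adjusted p = 0.0914). Mammary and skin epithelium markers summed to 101 to 268 CPM in female HFD SAT and 0 to 9.70 CPM in male HFD SAT. The part of these cells in the sex results was not tested. Mup20 had 0 to 5 reads in female SAT against 2 to 144 in male HFD SAT (adjusted p = 0.00147), and Mup3 was lower by 1.35 ± 0.54 on the log2 scale (adjusted p = 0.0924). The Stat5b and Mup3 calls were both lost in the same 6 alternatives, and without any of 9 (Stat5b) or 10 (Mup3) of the 15 libraries. As a percentage of Alb reads, Mup20 had a median of 0.181% in female and 2.04% in male HFD SAT. Igf1, Socs2 and Cish passed for sex in neither depot.

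Across the 16 livers, Ghr and Igfals varied together (Pearson r = 0.85 of log2 CPM) and Igf1 varied against Stat5a (r = −0.78), a description over libraries that also differ by diet and lane. Among all genes, Cgnl1 (r = 0.963), Alad (0.960) and Mgam (0.956) were most like Ghr. Hnrnpu (0.880), Tsr1 (0.879) and Tra2b (0.878) were most like Igf1, Rprd2 (0.901), Fosl2 (0.869) and BC005561 (0.826) most like Socs2, and Lpar6 (0.842), Mup8 (0.831) and Ces2a (0.828) most like Mup20.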

How the data were processed

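RNA-seq libraries from liver, SAT and VAT were read from 1 deposited table of raw read counts per gene. Per the labels and the study's methods, the authors made the counts with STAR in its gene-count mode on the mm10 genome with GENCODE M11 genes. The methods and the submitters' processing notes differ on the STAR version, and the notes name 2.5.3a. The strand column used is not given in the sources used here. No column fell outside the 62 samples (0 of no sample).

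Counts were tested with edgeR 4.0.16 in R 4.3.3: the quasi-likelihood test with TMM scaling, a low-count filter on groups (filterByExpr) and Benjamini-Hochberg adjustment over all genes tested, at a false discovery rate of 10%. Fits followed the labels: diet and genotype in liver (16 libraries), in each male depot (16), genotype over male fat (32) and over each depot with sex (23), sex on HFD (15 a depot), and diet by tissue (48). CPM values use TMM scaling within a tissue. TPM values use merged exon lengths of GENCODE M21, with the ribosomal RNA gene left out of levels by tissue. Promoter windows come from RefSeq. The model code was tested on simulated data first.

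Alternatives were other scalings, no filter, DESeq2 1.42.0, limma-voom (limma 3.58.1), a 5% rate, surrogate variables (sva 3.50.0), the ribosomal RNA share as a covariate, leaving out the second flow cell and leaving out each library. Leaving out the ribosomal RNA gene, and leaving out libraries over 10% of it, were chosen after seeing the data. The members and lists were chosen with earlier results of these data known. Named genes are the members, the Mup family, Fam13a, up to 6 genes with the smallest p per list and comparison, the 3 genes most correlated with Ghr, Igf1, Socs2 and Mup20 in liver, and markers that move with a member. Replicates of a group differed by more than sampling noise (lowest chi-square per degree of freedom 8.90), so each was counted as 1 sample. Some genes counted in the lists are not reported here by name.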

Additional observations from a re-analysis of the deposited data

Results flagged for a closer look

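Diet effects that differed between tissues were called for 14 pairs of gene and tissue in male libraries, each by a test of the difference itself. For SAT minus liver, the log2 differences of the HFD effects were −0.95 for Ghr, 2.35 for Igfals, −0.77 for Stat5a, −0.43 for Stat5b, 3.24 for Mup3 and 6.02 for Mup20. For VAT minus liver they were −1.90 for Ghr, 1.34 for Igfals, −2.37 for Cish, −1.03 for Stat5a, 3.02 for Mup3 and 3.51 for Mup20. For VAT minus SAT they were −0.95 for Ghr and −1.002 for Igfals. The last was near the threshold (edgeR adjusted p = 0.0986) and was lost without any of 41 of the 48 libraries, lying at −0.44 (adjusted p = 0.4664) without chow KO VAT replicate 2, and in 7 alternatives. The VAT minus liver call for Mup20 was lost without HFD WT VAT replicate 2 (2.59, adjusted p = 0.13) and without the libraries over 10% ribosomal RNA (3.43, adjusted p = 0.156). Leaving out those ribosomal libraries also lost the calls for Ghr (VAT minus SAT), Igfals (VAT minus liver), Stat5b (SAT minus liver) and Mup3 (both depots minus liver). The VAT minus liver call for Cish was lost with limma-voom. The Mup20 values rest on chow fat groups at or near 0 reads and depend on the prior count of the fit, so they give no size. Alb reads in male fat were also mostly higher on HFD, and lane differs with diet in each tissue.

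Of 126 pairs of a gene and a group of 4 libraries, 11 had 1 library that stood apart from the others of its group. Chance would give about 6.3 (1 in 20) if the pairs were independent, but the genes were read in the same libraries. Female KO SAT replicate 2 stood apart for Igf1 (114 CPM, others 224 to 242), Cish (14.03, others 4.50 to 5.52) and Stat5b (78.1, others 54.2 to 56.8), and it also carried lymph node B cell markers at 305 CPM. Chow WT VAT replicate 2, which carried epididymis markers and 3093 Alb reads, stood apart for Igf1 (187 CPM, others 306 to 331), Mup3 (10.1) and Mup20 (3.09). Chow KO VAT replicate 2 stood apart for Igfals (21.1 CPM, others 4.25 to 4.44) and, with 1 read, for Mup20 (0.0383). HFD WT VAT replicate 2, the fat library with the most Alb reads (6929), stood apart for Mup20 (5.30 CPM). Chow KO SAT replicate 3 had Igf1 at 266 CPM (others 183 to 194), and chow WT VAT replicate 1 had Socs2 at 11.1 CPM (others 13.5 to 14.01).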

How the results depend on the processing

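No member changed direction under any alternative in which it was called; of all the tests of a single member, 5370 kept their side of the threshold, 145 lost a call and 43 gained one. Counts of members called moved past 1.5 times as follows. For genotype in liver, the ribosomal RNA covariate called 1 on chow and the unfiltered fit called 2 on HFD, both against 0. For diet in VAT, a 5% rate, no filter and leaving out libraries over 10% ribosomal RNA each called 2 against 4. DESeq2 called 2 against 0 for diet by genotype in SAT and for genotype in SAT of both sexes. For genotype over male fat, limma-voom, leaving out the second flow cell and leaving out libraries over 10% ribosomal RNA each called 0 against 1. For sex in SAT, a 5% rate, no filter, limma-voom, the covariate, the second flow cell left out and libraries over 10% left out each called 3 against 5. For diet between liver and VAT, leaving out libraries over 10% called 3 against 6. For diet between SAT and VAT, a 5% rate, no filter, limma-voom, the covariate, the second flow cell left out and the ribosomal RNA gene left out each called 1 against 2, and libraries over 10% left out 0. The causes were not tested.

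With each library left out, the members called ranged from 5 to 7 for diet in liver (4 to 5 in WT, 2 to 4 in KO), 0 to 2 for genotype in HFD liver, 4 to 5 for diet in SAT, 2 to 6 in VAT, 0 to 3 for diet by genotype in SAT, 1 to 1 for genotype over male fat, 0 to 4 for genotype in SAT, 3 to 5 for sex in SAT, 3 to 4 in VAT, 6 to 7 for liver against SAT, 5 to 7 for liver against VAT and 1 to 2 for SAT against VAT. They stayed at 0 for genotype in liver over both diets and on chow, the interactions in liver and VAT, and genotype in VAT.

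Counts over all genes also moved. For genotype in liver they were 0 by edgeR, 39 unfiltered, 91 by DESeq2, 2 by limma-voom and 7 without libraries over 10% ribosomal RNA. On chow they were 1, 32 unfiltered, 28 by DESeq2 and 108 with the covariate, and on HFD 9, 158 unfiltered, 78 by DESeq2, 27 by limma-voom, 4 with the covariate and 3 at 5%. For diet by genotype they were 0 in liver, 43 unfiltered and 24 by DESeq2, 3 in SAT and 957 by DESeq2, and 1 in VAT and 102 by DESeq2. For genotype over male fat 736 became 325 at 5%, 338 unfiltered, 1320 by DESeq2, 282 without the second flow cell, 310 with 6 surrogate variables and 0 without libraries over 10%. Diet in VAT went from 7653 to 4890 without libraries over 10%. Genotype in SAT of both sexes went from 796 to 310 at 5%, 389 unfiltered, 1628 by DESeq2, 383 without the second flow cell and 5 without libraries over 10%. With 1 library left out, diet by genotype in SAT (3 genes) ranged from 0 to 5142, the highest without chow KO replicate 4, and genotype in SAT from 328 (without chow WT replicate 2) to 2723 (without female KO replicate 2).

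No paired analysis was possible because the replicate numbers follow the order of the samples and the labels tie no library to a mouse; whether depots of a group share mice is not given in the labels. Depth limits Socs2 and Cish most in liver, down to 4 reads of Socs2 in 1 library, and Mup20 in fat.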

Other observations

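Hepatokine and stress genes were read beside the axis. In male liver Lepr, the leptin receptor, fell by 3.85 on the log2 scale with HFD (edgeR adjusted p = 1.79e-06), from 33.9 to 170 CPM in chow WT livers to 2.28 to 5.24 CPM in HFD WT livers. Fgf21, a liver hormone known to blunt growth hormone signalling, fell by 2.03 (adjusted p = 6.04e-05), from 8.76 ± 2.10 CPM (SD, n = 4) in chow WT to 2.33 ± 2.18 in HFD WT. Asns, an amino acid stress gene, was at 2.79 to 29.4 CPM in chow WT and 0.213 to 0.766 CPM in HFD WT livers (adjusted p = 8.06e-06), and Atf3 rose by 1.57 (adjusted p = 0.000354). In VAT, Atf3 rose by 3.78 (adjusted p = 1.77e-05) and Asns fell by 1.56 (adjusted p = 0.000187).

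Genes listed as sex-biased in liver were also read in male fat. In VAT, 1 rose and 4 fell of 11 female-biased genes, and 1 rose and 2 fell of 13 male-biased genes (44.2% of all genes were called). In SAT, 7 rose and 1 fell of 9 female-biased genes, and 6 rose and 1 fell of 12 male-biased genes (58% of all genes). Among the female-biased genes in SAT, Cyp2b9 (log2 4.86, edgeR adjusted p = 0.000136), Cyp4a10 (4.13, adjusted p = 0.00112) and Cux2 (2.36, adjusted p = 0.000552) were higher on HFD. Hepatocyte markers were higher in the same depots, and their part was not tested.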
